A study of Mus musculus with 15 samples.

Results

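Transcripts of 37 endothelial and angiogenesis genes were followed in interscapular brown adipose tissue, the heat-producing fat between the shoulder blades. The members were a gene list: surface and junction proteins of the vessel wall, receptors and ligands that steer vessel growth, Notch and ephrin genes, endothelial transcription factors, and signalling proteins of the endothelial membrane. All 37 were found among the 18194 genes with a probe set of a single symbol, and all 37 passed the filter on dim signals, as did 13174 genes in all. The samples came from 15 adult male wt C57BL/6N mice on a high-fat diet, 1 array per mouse and 5 mice per group. Tissue was taken on day 5. The controls are replicates 31 to 35, and the labels do not say what they received. The FGF21 group, replicates 36 to 40, received human FGF21 at 1 mg/kg in 2 doses a day, that is 2 mg/kg per day. FGF21 is a hormone that acts through the receptor FGFR1 with its co-receptor KLB. The aFGFR1/KLB group, replicates 41 to 45, was given bFKB1, an agonist antibody to that receptor complex, at 10 mg/kg in 1 intraperitoneal injection. The series asks which genes of brown fat respond to this receptor complex, and the question here was how the genes of its vessels read under each agent. No sample was manipulated in endothelial cells alone, and both agents were given to the whole animal.

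Endothelial cells line every blood vessel, and brown fat is densely supplied with capillaries that bring oxygen and fuel to heat-producing adipocytes and carry heat away. VEGF ligands released by surrounding cells act on the receptors Kdr and Flt1, angiopoietins act on the receptor Tek, and Notch signalling together with SoxF transcription factors (Sox7, Sox17 and Sox18) sets arterial identity and limits sprouting. Nitric oxide made by Nos3 relaxes the vessel wall.

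Values are RMA-normalised intensities on the log2 scale, so that a difference of 1 is a doubling. RMA summarises the probes of a probe set into 1 value per array. A difference is given as log2 fold change ± SE with n = 5 per group, and called where limma's p, adjusted by Benjamini and Hochberg over the 13174 genes, was under 0.05. The labels describe biological replicates, so p refers to the spread between mice. In bulk tissue, fewer cells of a type and less RNA per cell cannot be told apart. A probe set's level says nothing about its level relative to another gene, so only the same gene is compared between mice.

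The array medians lay between 50.6 and 52.1 on the linear scale, and arrays correlated at 0.925 to 0.996 across genes. Control 34 and FGF21 36 stood apart from the rest: the mean of 14 macrophage genes was 10.29 and 10.62 in them and 8.16 to 9.54 in the other 13 samples. The mean of 12 collagen and fibroblast genes was 11.66 and 11.16 in them, against 9.4 to 10.45. Skeletal muscle genes ran from 4.72 to 13.18 over all samples, with low and high samples in both treated groups. Endothelial markers outside the set, 25 genes, averaged 8.22 to 8.69 in controls, 8.46 to 8.82 with FGF21 and 8.48 to 8.58 with the antibody, so vessel transcripts were plainly present in every sample. Of the lymphatic markers, Prox1, Mmrn1 and Reln lay below the filter, and Lyve1 and Pdpn alone were tested. Of the macrophage markers, Itgam lay below it. The part of these cell contents in the results below was not tested beyond the values given.

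With the antibody, Sox17, S1pr1, Efnb2 and Notch4 rose and Nos3 fell. These 5 calls are 13.5% of the 37 members, beside 5.18% of all genes tested (2.69% higher and 2.49% lower). In all, 24 members were higher and 13 lower, with a median difference of 0.13 against −0.02 over all genes. The 5 antibody values did not overlap the 5 control values for 7 members, 6 above and 1 below, beside 8.61% of all genes (4.44% above and 4.17% below). At an unadjusted p under 0.05 there were 14 members, beside 19.4% of all genes. With FGF21, Eng, Notch4 and Sox17 rose and Nos3 fell, 4 calls or 10.8% of members beside 6.32% of all genes (2.64% higher and 3.68% lower). There, 31 members were higher and 6 lower, with a median of 0.15 against −0.02, and 14 members had an unadjusted p under 0.05, beside 20.4% of all genes. All 5 FGF21 values lay above all controls for 3 members, Eng, Notch4 and Cav1, beside 2.37% of genes above, 2.88% below and 5.25% in either direction. Both comparisons use the same 5 control mice, so their values are not independent of each other. With arrays centred on 45 ribosomal protein genes, Sox17 with the antibody was the only call left among the members, beside 1.1% of all genes. With FGF21, 0 were left (8 at an unadjusted p under 0.05 in limma), beside 1.36% of all genes. Over all genes that centring made 77.2% of the antibody calls higher, against 51.9% without it, and 66.5% of the FGF21 calls, against 41.8%. With the 2 groups compared alone in the fit, 0 members were called for FGF21 (13 at an unadjusted p under 0.05 in limma), beside 2.44% of all genes. The antibody count was 1 without control 33 or aFGFR1/KLB 42 or 44, 2 without control 32 or aFGFR1/KLB 43, and 3 without control 35 or aFGFR1/KLB 41 or 45. In those fits 2.55% to 4.34% of all genes were called. The FGF21 count was 2 without control 31, 32 or 35 or FGF21 37 or 39, beside 3.51% to 4.68% of all genes. It was 8 without control 34, beside 15.9% of all genes. Without control 34 and FGF21 36 together, the samples that stood apart, 8 members were called with the antibody, beside 12.4% of all genes. In that setting 10 were called with FGF21, beside 16.2% of all genes.

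**Figure D1:**
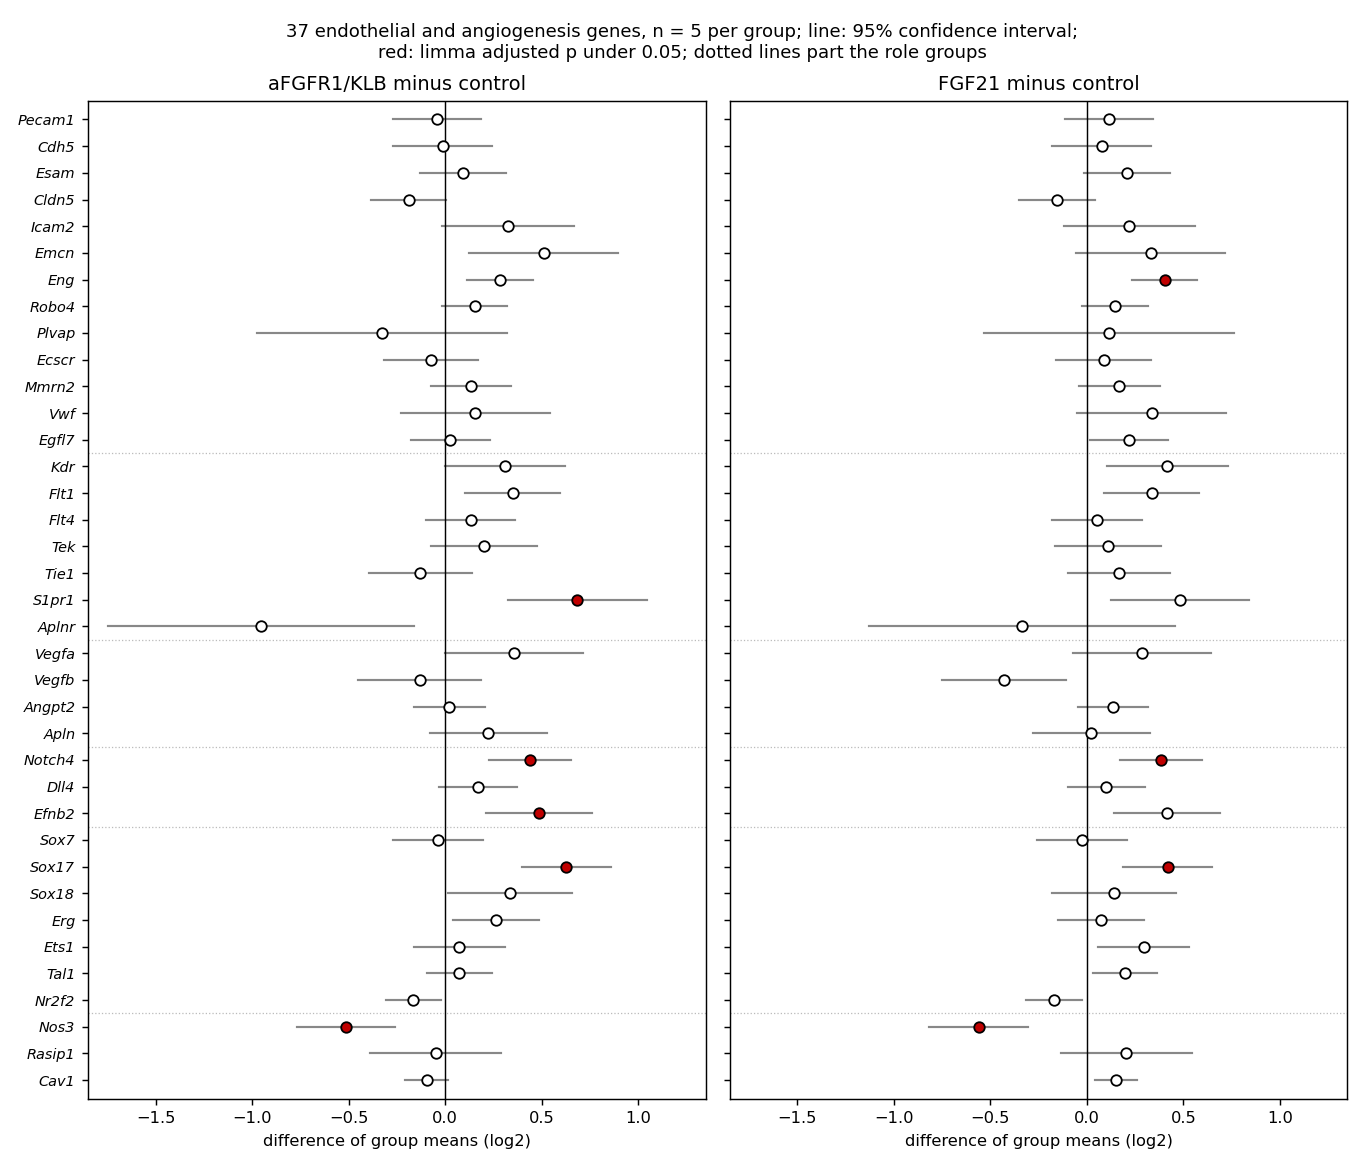
Differences of group means from control (log2) for the 37 genes, ordered by role, with the antibody (left) and FGF21 (right). Points are differences, lines are 95% confidence intervals and red points have a limma adjusted p under 0.05. Sox17, Notch4, S1pr1 and Efnb2, the members called higher with the antibody, lie to the right of 0 there, as do other members that were not called. Nos3 lies to the left under both agents.

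Among the endothelial transcription factors, Sox17 was the member with the smallest p. Sox17 read 8.09, 8.08, 8.29, 8.32 and 8.0 in controls 31 to 35, 8.48, 8.85, 8.49, 8.82 and 8.24 in FGF21 36 to 40 and 8.68, 8.75, 8.86, 8.86 and 8.77 in aFGFR1/KLB 41 to 45. All 5 antibody values lay above every control, while FGF21 40 lay inside the control range. The rise with the antibody was 0.63 ± 0.11 (SE; limma adjusted p = 0.0055), a 1.54-fold difference. Its call held in all 15 fits that left out 1 sample and in all 10 other settings. With FGF21 the rise was 0.42 ± 0.11 (SE; limma adjusted p = 0.0321), and that call ended without control 31, 32 or 35 or FGF21 37 or 39 (adjusted p 0.075 to 0.085). It also ended with arrays centred on their median, at 0.40 (adjusted p = 0.0531), and with the mean of other endothelial markers as a covariate, at 0.24 (adjusted p = 0.337). Its probe set may also bind other transcripts, by the array maker's naming. A second, dimmer Sox17 probe set differed by 0.57 with the antibody (adjusted p = 0.00619 over all probe sets) and by 0.34 with FGF21 (adjusted p = 0.0622).

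The other SoxF genes were not called. Sox18 averaged 9.43 ± 0.18 in controls, 9.57 ± 0.36 with FGF21 and 9.76 ± 0.17 with the antibody (± SD), a difference of 0.33 ± 0.15 (SE; limma adjusted p = 0.236) for the antibody. Sox7 averaged 8.04 ± 0.16 in controls, 8.02 ± 0.24 with FGF21 and 8.01 ± 0.11 with the antibody, with differences of −0.04 and −0.03. Thus Sox17 alone of the SoxF genes passed the test, although differences between these genes were not tested. Erg, an ETS factor that maintains endothelial junctions, differed by 0.26 ± 0.10 with the antibody and 0.08 ± 0.10 with FGF21. Ets1, a related factor, differed by 0.07 ± 0.11 and 0.30 ± 0.11, and its second probe set by 0.32 and 0.42. Tal1, a factor of blood and endothelial precursors, differed by 0.07 ± 0.08 and 0.20 ± 0.08. Nr2f2, which sets venous identity, differed by −0.17 ± 0.07 and −0.17 ± 0.07, with adjusted p of 0.188 and 0.165.

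Of the Notch and ephrin genes, Notch4, a Notch receptor largely restricted to endothelium, rose under both agents. Notch4 read 8.46, 8.53, 8.31, 8.51 and 8.51 in controls 31 to 35, 8.56, 9.19, 8.88, 8.89 and 8.73 in FGF21 36 to 40 and 8.77, 8.98, 9.05, 8.93 and 8.79 in aFGFR1/KLB 41 to 45. Every treated mouse exceeded every control, with FGF21 36 closest to them. The rise was 0.44 ± 0.10 (SE; limma adjusted p = 0.0204) with the antibody and 0.39 ± 0.10 (SE; limma adjusted p = 0.0324) with FGF21. The antibody call ended without control 33 or aFGFR1/KLB 42, 43 or 44 (adjusted p 0.0513 to 0.0589). The FGF21 call ended without any of controls 31, 32, 33 and 35 or FGF21 37, 38 and 39 (adjusted p 0.0561 to 0.0855), and with arrays centred on their median, at 0.37 (adjusted p = 0.0904). The mean over all its probe sets, of which the others lay below the filter at 4.94 and 3.68, differed by 0.18 (adjusted p = 0.271) for the antibody and by 0.18 (adjusted p = 0.232) for FGF21.

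Efnb2, an ephrin ligand in the cell membrane that marks arterial endothelium, rose with the antibody. Efnb2 read 8.58, 8.33, 8.14, 8.48 and 8.31 in controls 31 to 35, 8.55, 9.25, 8.55, 8.89 and 8.66 in FGF21 36 to 40 and 9.05, 8.91, 8.66, 8.82 and 8.82 in aFGFR1/KLB 41 to 45. All antibody values exceeded the highest control, 8.58, whereas FGF21 36 and 38 lay just under it. The rise with the antibody was 0.49 ± 0.13 (SE; limma adjusted p = 0.0413), and the difference with FGF21 was 0.42 ± 0.13 (SE; limma adjusted p = 0.0701). The antibody call ended in 9 of the 15 fits without 1 sample (controls 32, 33 and 35, FGF21 39 and 40, and aFGFR1/KLB 41, 42, 44 and 45; adjusted p 0.0516 to 0.103). It also ended with no filter on dim genes, at 0.49 (adjusted p = 0.0521), and with median centring, at 0.52 (adjusted p = 0.0564). Its further probe sets past the filter differed by 0.55 and 0.04 with the antibody. Dll4, the Notch ligand of tip cells, was not called. It averaged 5.53 ± 0.18 in controls, 5.63 ± 0.18 with FGF21 and 5.70 ± 0.04 with the antibody, close to the filter's 5.06, with differences of 0.17 ± 0.09 and 0.10 ± 0.09.

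The stretches upstream of the called genes show what regulatory letters lie next to them. RefSeq promoter windows (GRCm38.p6) were at hand for 21 of the 37 members, and the called members among them were Notch4, Eng and Efnb2. Below are the 250 bases before the start of each, 5′ to 3′ on the gene's strand, with capitals marking CCGGAA or AGGAAG, core letters bound by ETS factors such as Erg and Ets1, on either strand.
Notch4, chr17:34564045-34564294, plus strand: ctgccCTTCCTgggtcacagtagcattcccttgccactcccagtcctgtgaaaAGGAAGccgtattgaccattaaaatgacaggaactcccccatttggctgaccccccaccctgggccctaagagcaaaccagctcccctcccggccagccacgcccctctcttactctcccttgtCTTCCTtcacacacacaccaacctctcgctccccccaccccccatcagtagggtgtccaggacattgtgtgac
Eng, chr2:32646345-32646594, plus strand: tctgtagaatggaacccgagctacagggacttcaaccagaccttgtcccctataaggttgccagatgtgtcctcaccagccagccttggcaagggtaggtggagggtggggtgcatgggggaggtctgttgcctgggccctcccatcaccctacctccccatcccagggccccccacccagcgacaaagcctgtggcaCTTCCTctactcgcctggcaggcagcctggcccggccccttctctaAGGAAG
Efnb2, chr8:8661243-8661492, minus strand: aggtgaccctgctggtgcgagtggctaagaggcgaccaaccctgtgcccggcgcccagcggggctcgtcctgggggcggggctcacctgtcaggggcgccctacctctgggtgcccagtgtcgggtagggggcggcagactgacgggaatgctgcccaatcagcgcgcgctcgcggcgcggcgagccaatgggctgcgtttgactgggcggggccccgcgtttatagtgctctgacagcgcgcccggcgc
The Notch4 window held 3 such matches, starting 245, 197 and 73 bases before the gene's start, and the Eng window held 2, at 52 and 6 bases. The Efnb2 window held 0. Over 28 member windows (some genes have several), 46.4% held at least 1 ETS match, beside 38.2% of all 32851 windows of that length. For ACAATG or ACAAAG, letters bound by SOX factors, the shares were 21.4% and 25.2%. They were 10.7% and 9.99% for AGATAA, read by factors of the Gata family. The E box CAGCTG was held by 7.14% and 13%. All were searched on both strands. A match is a description of letters, not a bound site.

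**Figure D2:**
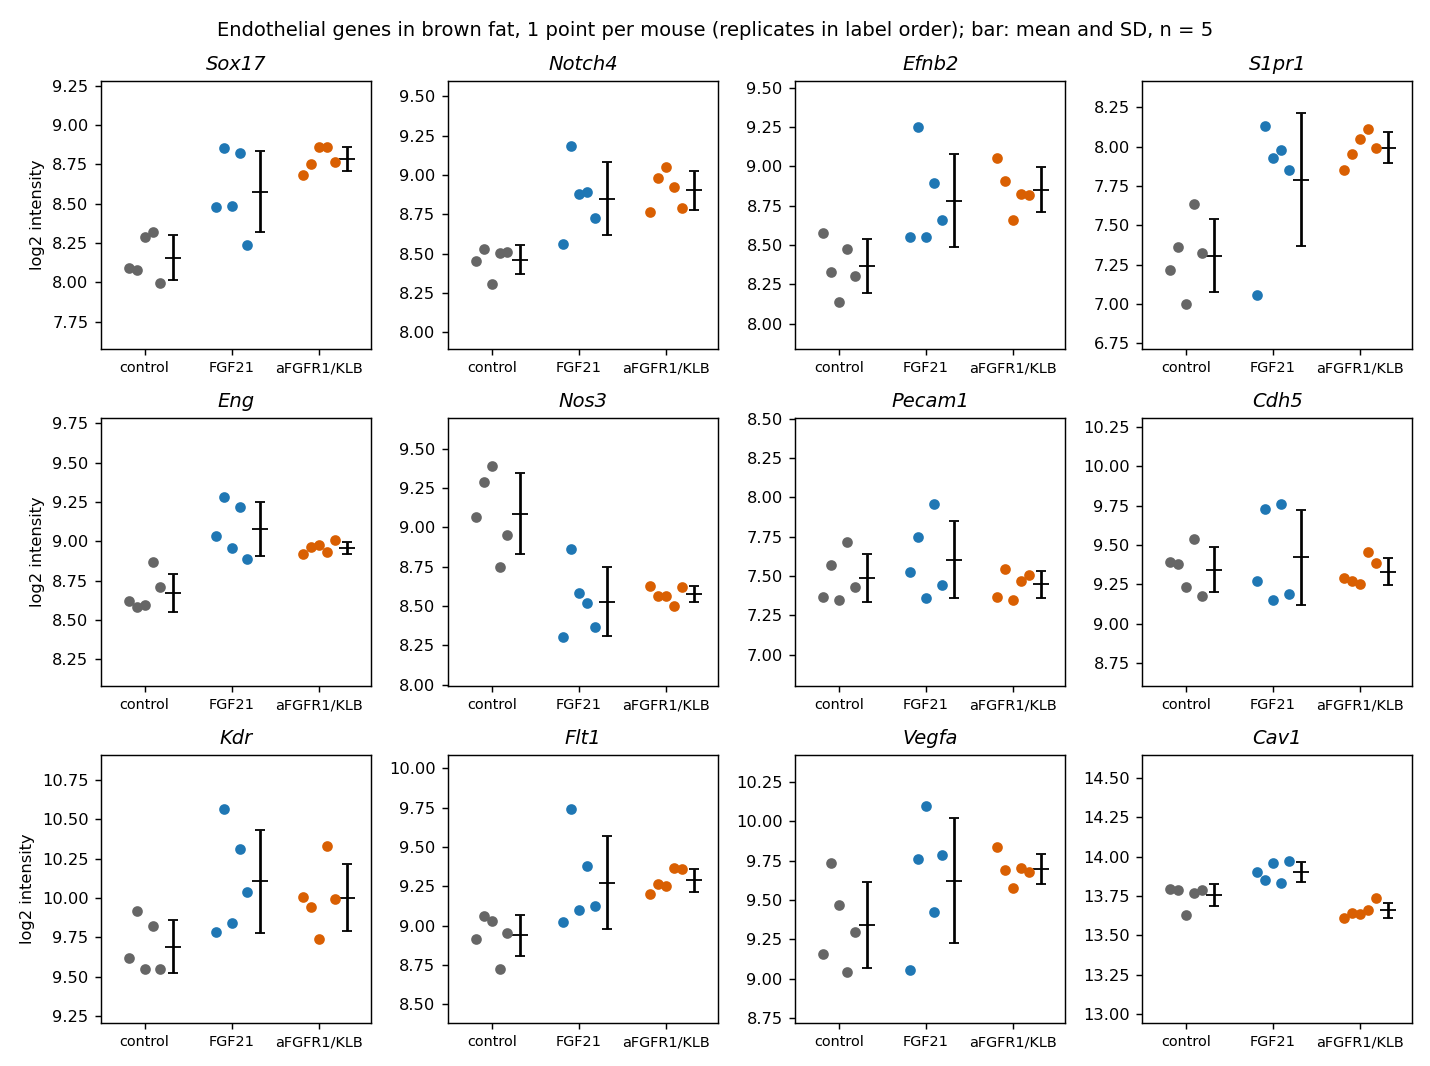
Log2 intensity of 12 genes in each of the 15 mice by group, with the mean and SD (n = 5) beside the points; every panel spans the same log2 range. Sox17, Notch4, Efnb2, S1pr1, Eng and Flt1 show all 5 antibody points above all control points, and Nos3 shows them below, while Pecam1 and Cdh5 overlap in all groups.

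Among the receptors, S1pr1, the receptor for sphingosine 1-phosphate that stabilises vessels and restrains sprouting, rose with the antibody. S1pr1 read 7.22, 7.36, 7.0, 7.63 and 7.32 in controls 31 to 35, 7.06, 8.13, 7.93, 7.98 and 7.85 in FGF21 36 to 40 and 7.85, 7.95, 8.05, 8.11 and 7.99 in aFGFR1/KLB 41 to 45. The antibody values all exceeded the highest control, 7.63, and 4 of the 5 FGF21 values did as well, while FGF21 36 at 7.06 lay near the lowest control. The rise with the antibody was 0.69 ± 0.17 (SE; limma adjusted p = 0.0295), a 1.61-fold difference. Leaving out any of controls 31, 32, 33 and 35 or any of the 5 antibody mice ended the call (adjusted p 0.0517 to 0.0751). With FGF21 the difference was 0.48 ± 0.17 (SE; limma adjusted p = 0.108), and without FGF21 36 it was 0.67 (adjusted p = 0.0023).

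The VEGF receptors Kdr and Flt1 were not called. Kdr read 9.62, 9.91, 9.55, 9.82 and 9.55 in controls 31 to 35, 9.79, 10.57, 9.84, 10.31 and 10.04 in FGF21 36 to 40 and 10.01, 9.94, 9.74, 10.33 and 10.00 in aFGFR1/KLB 41 to 45. Kdr carries most of the VEGF signal in endothelium. Its difference was 0.31 ± 0.15 (SE; limma adjusted p = 0.257) with the antibody and 0.42 ± 0.15 (SE; limma adjusted p = 0.111) with FGF21, where FGF21 37 and 39 read highest. Flt1 read 8.92, 9.07, 9.03, 8.73 and 8.95 in controls 31 to 35, 9.02, 9.74, 9.10, 9.38 and 9.12 in FGF21 36 to 40 and 9.2, 9.27, 9.25, 9.37 and 9.36 in aFGFR1/KLB 41 to 45. Flt1 binds VEGF tightly and limits its action. All 5 antibody values exceeded the highest control, 9.06, with a difference of 0.35 ± 0.12 (SE; limma adjusted p = 0.0998). With FGF21 the difference was 0.34 ± 0.12 (SE; limma adjusted p = 0.107). Another Flt1 probe set differed by 0.48 with the antibody (adjusted p = 0.0234 over all probe sets), and another, dim one by −0.10.

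Tek, the angiopoietin receptor also called Tie2, overlapped in all groups. Tek read 8.83, 8.90, 8.31, 8.93 and 8.74 in controls 31 to 35, 8.74, 9.27, 8.63, 8.93 and 8.70 in FGF21 36 to 40 and 8.91, 8.87, 8.87, 9.07 and 8.99 in aFGFR1/KLB 41 to 45. Control 33 at 8.31 was lowest and FGF21 37 at 9.27 highest. The differences were 0.20 ± 0.13 and 0.11 ± 0.13. Tie1, its partner receptor, differed by −0.13 ± 0.12 with the antibody and 0.17 ± 0.12 with FGF21. Flt4, the receptor for VEGF-C that is strong in lymphatic vessels, differed by 0.13 ± 0.11 and 0.05 ± 0.11. Aplnr, the apelin receptor, had the largest SE of the 37 members. It averaged 9.92 ± 0.67 in controls, 9.58 ± 0.80 with FGF21 and 8.96 ± 0.39 with the antibody, and its difference of −0.96 ± 0.37 (SE; limma adjusted p = 0.162) with the antibody was the lowest value in the set without being called. With the mean of other endothelial markers as a covariate Aplnr was called, at −1.42 (adjusted p = 0.00577) with the antibody and −1.21 (adjusted p = 0.0393) with FGF21.

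None of the 4 ligands was called by limma under either agent, beside 5.18% of all genes with the antibody and 6.32% with FGF21. With each agent 1 had an unadjusted p under 0.05, beside 19.4% and 20.4% of all genes. Vegfa is the ligand that adipocytes release to recruit vessels. Vegfa read 9.16, 9.74, 9.47, 9.04 and 9.29 in controls 31 to 35, 9.05, 9.76, 10.10, 9.42 and 9.78 in FGF21 36 to 40 and 9.84, 9.69, 9.58, 9.71 and 9.68 in aFGFR1/KLB 41 to 45. The antibody values were tightly placed between 9.57 and 9.84, but control 32 at 9.74 lay among them. The difference was 0.36 ± 0.17 (SE; limma adjusted p = 0.257) with the antibody and 0.28 ± 0.17 (SE; limma adjusted p = 0.381) with FGF21, and a second Vegfa probe set differed by −0.05 and 0.09. Angpt2 read 6.25, 6.23, 6.10, 6.54 and 6.30 in controls 31 to 35, 6.55, 6.27, 6.48, 6.34 and 6.46 in FGF21 36 to 40 and 6.19, 6.49, 6.22, 6.26 and 6.36 in aFGFR1/KLB 41 to 45. Angpt2, which loosens vessels by opposing Tek signalling, spanned about the same range in each group, with differences of 0.02 ± 0.09 and 0.14 ± 0.09. Vegfb, a VEGF relative that acts on Flt1, averaged 10.53 ± 0.38 in controls, 10.10 ± 0.18 with FGF21 and 10.40 ± 0.12 with the antibody, a difference of −0.43 ± 0.15 (SE; limma adjusted p = 0.109) for FGF21. Control 34 read 9.87 against 10.60 to 10.78 in the other controls, and without it the FGF21 difference was −0.59 (adjusted p = 0.0011). Apln, the apelin precursor, differed by 0.22 ± 0.14 and 0.02 ± 0.14.

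Among surface and junction proteins, 1 of 13 members, Eng, was called with FGF21, 7.69% beside 6.32% of all genes. With the antibody 0 were called, beside 5.18% of all genes. At an unadjusted p under 0.05 there were 2 with each agent, beside 20.4% of all genes with FGF21 and 19.4% with the antibody. Eng, endoglin, is a co-receptor for TGF-beta and BMP9 on endothelium. Eng read 8.62, 8.58, 8.59, 8.87 and 8.71 in controls 31 to 35, 9.03, 9.29, 8.96, 9.22 and 8.89 in FGF21 36 to 40 and 8.92, 8.97, 8.97, 8.93 and 9.01 in aFGFR1/KLB 41 to 45. No treated value overlapped the controls, of which control 34 was highest at 8.87. The rise with FGF21 was 0.40 ± 0.08 (SE; limma adjusted p = 0.00829), and its call held in all 15 fits without 1 sample. That call ended with the 2 groups alone in the fit, with ribosomal centring, and with the mean of other endothelial markers as a covariate. With the antibody the difference was 0.29 ± 0.08 (SE; limma adjusted p = 0.0532). On its second probe set Eng differed by 0.49 with FGF21 (adjusted p = 0.0211 over all probe sets) and by 0.63 with the antibody (adjusted p = 0.0068). The antibody difference, not called in the fit above, was called in 7 of the 10 other settings, 1 of which took the mean of its probe sets. It was called in 4 of the 15 fits without 1 sample.

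Pecam1 and Cdh5, the general markers of endothelium, were not called under either agent. Pecam1 read 7.37, 7.57, 7.35, 7.72 and 7.43 in controls 31 to 35, 7.52, 7.75, 7.36, 7.96 and 7.44 in FGF21 36 to 40 and 7.37, 7.54, 7.35, 7.47 and 7.50 in aFGFR1/KLB 41 to 45. Pecam1, a junction molecule of all endothelial cells, overlapped in all groups, with FGF21 39 highest. Its differences were −0.04 ± 0.11 (SE; limma adjusted p = 0.887) and 0.12 ± 0.11 (SE; limma adjusted p = 0.601), and the 95% interval for the antibody was −0.27 to 0.19. Cdh5 read 9.4, 9.38, 9.24, 9.54 and 9.18 in controls 31 to 35, 9.27, 9.73, 9.15, 9.76 and 9.19 in FGF21 36 to 40 and 9.29, 9.28, 9.26, 9.45 and 9.39 in aFGFR1/KLB 41 to 45. Cdh5, the cadherin of endothelial junctions, likewise overlapped, with differences of −0.01 ± 0.12 (SE; limma adjusted p = 0.972) and 0.08 ± 0.12 (SE; limma adjusted p = 0.784), and an interval of −0.27 to 0.24 for the antibody. Emcn, a sialomucin of capillaries and veins, averaged 8.16 ± 0.32 in controls, 8.49 ± 0.38 with FGF21 and 8.67 ± 0.21 with the antibody. Its difference with the antibody was 0.51 ± 0.18 (SE; limma adjusted p = 0.124), and without control 34, which read 8.71 against 7.93 to 8.16 in the other controls, it was 0.65 (adjusted p = 0.0256).

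The remaining surface genes were not called, and are given as differences with the antibody and then with FGF21. The junction genes Esam (0.09 and 0.21) and Cldn5 (−0.19 and −0.15) did not pass the test. Icam2, an adhesion molecule for leukocytes, gave 0.33 and 0.22. Robo4, a guidance receptor that keeps vessels tight, gave 0.15 and 0.15. Plvap, which forms the diaphragms of fenestrae and caveolae, gave −0.33 ± 0.30 and 0.12 ± 0.30, with control 34 at 8.74 against 6.93 to 7.30 in the other controls. Vwf, the clotting factor carrier stored in endothelium, gave 0.16 and 0.34. The matrix and secreted genes Mmrn2 (0.13 and 0.17) and Egfl7 (0.03 and 0.22), and the membrane gene Ecscr (−0.07 and 0.09), lay within 0.22 of 0. The Egfl7 probe set, like that of Sox17, may bind other transcripts by its name. A second Egfl7 probe set differed by 0.33 with FGF21 (adjusted p = 0.026 over all probe sets).

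Nos3, endothelial nitric oxide synthase, was the one member that fell, and it fell under both agents. Nos3 read 9.07, 9.29, 9.39, 8.75 and 8.95 in controls 31 to 35, 8.30, 8.86, 8.58, 8.52 and 8.37 in FGF21 36 to 40 and 8.63, 8.56, 8.57, 8.50 and 8.62 in aFGFR1/KLB 41 to 45. All antibody values lay below the lowest control, 8.75 in control 34, and of the FGF21 values only FGF21 37 at 8.86 lay above it. The difference was −0.51 ± 0.12 (SE; limma adjusted p = 0.0237) with the antibody, a 0.701-fold level, and −0.56 ± 0.12 (SE; limma adjusted p = 0.0125) with FGF21. The FGF21 call held in all 15 fits without 1 sample and in 7 of the 10 other settings. It ended with the 2 groups alone in the fit, with ribosomal centring, and with the mean of other endothelial markers as a covariate. The antibody call ended without control 32 or 33 or aFGFR1/KLB 42, 43 or 44 (adjusted p 0.0519 to 0.0661). With arrays centred on their median, the antibody value was −0.48 (adjusted p = 0.0836). Within groups Nos3 read lower where macrophage genes read higher (slope −0.25 per unit of their mean). With that mean as a covariate its difference was −0.52 (adjusted p = 0.00028) with the antibody and −0.44 (adjusted p = 0.00112) with FGF21.

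Cav1, the coat protein of caveolae, is made by adipocytes as well as endothelium. Cav1 read 13.80, 13.79, 13.63, 13.77 and 13.79 in controls 31 to 35, 13.90, 13.85, 13.96, 13.83 and 13.98 in FGF21 36 to 40 and 13.61, 13.64, 13.64, 13.66 and 13.74 in aFGFR1/KLB 41 to 45. All FGF21 values lay above all controls and above all antibody values, within a narrow band. The difference with FGF21 was 0.15 ± 0.05 (SE; limma adjusted p = 0.105) and with the antibody −0.10 ± 0.05 (SE; limma adjusted p = 0.338). Rasip1, a Ras-interacting protein needed for vessel lumens, differed by −0.05 ± 0.16 and 0.21 ± 0.16.

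**Figure D3:**
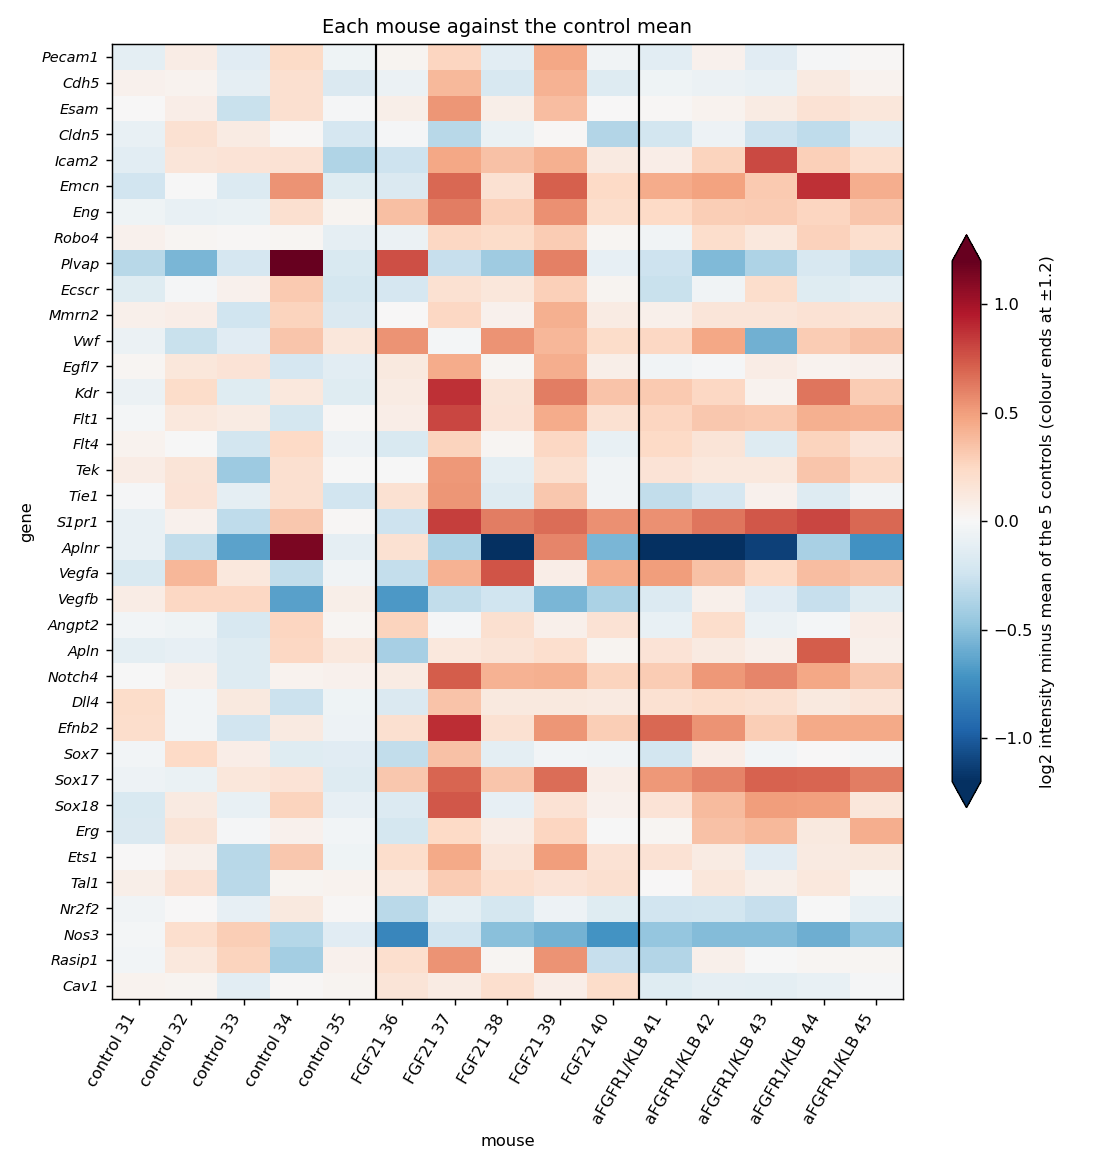
Log2 intensity of each of the 37 genes (vertical axis) in each of the 15 mice (horizontal axis) minus the mean of the 5 controls for that gene, red above and blue below, with the colour scale ending at ±1.2. Sox17, Notch4, Efnb2 and S1pr1 are red in all 5 antibody mice, as are several members that were not called, among them Flt1, Vegfa and Sox18. Control 34 was highest of its group for 21 genes and FGF21 37 for 19. FGF21 36 was lowest of its group for 20 genes and aFGFR1/KLB 41 for 19.

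The antibody was compared with FGF21 directly, at doses and schedules that differ: 10 mg/kg once against 1 mg/kg in 2 doses a day. Of the 37 members 0 were called by limma, beside 0.372% of all genes, and 2 had an unadjusted p under 0.05 (Tie1 and Cav1, both lower with the antibody), beside 13.5% of all genes. The median difference was −0.01, against 0.01 over all genes. Cav1 had the smallest p, −0.25 ± 0.05 (SE; limma adjusted p = 0.0522), with a 95% interval of −0.36 to −0.14, and without overlap between the groups. Over all genes 4.69% did not overlap, 2.39% higher and 2.3% lower with the antibody. The Cav1 call was made in 7 other settings, among them leaving out control 33 (adjusted p = 0.0417) or control 34 (adjusted p = 0.0285). For Tie1 the difference was −0.30 ± 0.12 (SE; limma adjusted p = 0.321). The 95% intervals of the called members all spanned 0: −0.02 to 0.44 for Sox17, −0.16 to 0.56 for S1pr1 and −0.16 to 0.27 for Notch4. For Efnb2 the interval was −0.20 to 0.35, for Eng −0.29 to 0.05 and for Nos3 −0.21 to 0.30. A call under one agent and not the other is therefore not shown to be a difference between them for S1pr1, Efnb2 and Eng.

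Other genes of vessels were taken from 6 lists that share no gene with the set: VEGF and angiopoietin signalling, further endothelial markers, arterial and Notch genes, venous and activation genes, capillary genes of fat, and angiogenic and hypoxia signals. Of 72 genes, 65 passed the filter. With the antibody 7 rose and 3 fell, 15.4% of them beside 5.18% of all genes, with a median of 0.12. With FGF21 5 rose and 1 fell, 9.23% beside 6.32%, with a median of 0.20. Between the agents 0 were called higher by limma and 1 lower with the antibody, 1.54% beside 0.372%. At an unadjusted p under 0.05 there were 8 of 65 between the agents, beside 13.5% of all genes. With ribosomal centring the calls named below ended, other than those of Egln3 in both comparisons with control, Angpt1 with FGF21, and Thbs1.

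Angpt1, the ligand that activates Tek and steadies vessels, fell under both agents. It averaged 8.39 ± 0.21 in controls, 7.46 ± 0.22 with FGF21 and 7.75 ± 0.29 with the antibody. The difference was −0.93 ± 0.15 (SE; limma adjusted p = 0.00195) with FGF21 and −0.64 ± 0.15 (SE; limma adjusted p = 0.0204) with the antibody, and the antibody call ended without control 32 or 33 or aFGFR1/KLB 41, 42 or 43 (adjusted p 0.0531 to 0.0589). Hey1, a transcription factor induced by Notch, rose with the antibody by 0.69 ± 0.16 (SE; limma adjusted p = 0.0202), a call that ended without control 35 or aFGFR1/KLB 42 (adjusted p 0.0515 to 0.0538). Its difference with FGF21 was 0.45 ± 0.16 (SE; limma adjusted p = 0.105). Cxcl12, a chemokine made by arterial endothelium and stromal cells, rose with the antibody by 0.61 ± 0.16 (SE; limma adjusted p = 0.0367), but a second probe set differed by −0.49, and the call ended in 8 of 15 fits without 1 sample (controls 31, 33 and 35, FGF21 40 and aFGFR1/KLB 41, 42, 44 and 45). The remaining tested arterial and Notch genes, among them Notch1 (0.09 and 0.28) and Jag1 (−0.05 and 0.12), were not called.

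Of the 25 further endothelial markers, 3 were called with each agent, 12% beside 5.18% of all genes with the antibody and 6.32% with FGF21. Thbd, thrombomodulin, which keeps the vessel surface free of clots, rose under both, by 0.47 ± 0.11 (SE; limma adjusted p = 0.0199) and 0.53 ± 0.11 (SE; limma adjusted p = 0.00892); the antibody call ended without control 32 or aFGFR1/KLB 41 (adjusted p 0.055 to 0.0551). Cyyr1 rose with the antibody by 0.54 ± 0.13 (SE; limma adjusted p = 0.0241), and the call ended without controls 31, 33 or 35 or aFGFR1/KLB 42, 43 or 44; its second probe set differed by −0.12. Pcdh12, an endothelial protocadherin, fell with the antibody, with a difference of −0.48 ± 0.10 (SE; limma adjusted p = 0.0108). That call ended with the mean over all its probe sets, at −0.21 (adjusted p = 0.165), and with ribosomal centring, at −0.39 (adjusted p = 0.243). The other Pcdh12 probe sets lay below the filter, at 4.61 and 4.22. With FGF21, Adgrl4, an adhesion receptor of sprouting endothelium, rose by 0.36 ± 0.10 (SE; limma adjusted p = 0.0475) and Apold1 rose by 0.71 ± 0.20 (SE; limma adjusted p = 0.0493). These calls ended in 13 and 11 of the 15 fits without 1 sample, with adjusted p up to 0.114 and 0.119. For Adgrl4 they held only without control 34 or FGF21 36, and for Apold1 only without control 32, 33 or 34 or FGF21 36. With the antibody the differences were 0.35 ± 0.10 for Adgrl4 (SE, limma adjusted p = 0.0644) and 0.38 ± 0.20 for Apold1 (SE, limma adjusted p = 0.328). A second Adgrl4 probe set differed by 0.61 with the antibody (limma adjusted p = 0.0174 over all probe sets) and by 0.51 with FGF21 (adjusted p = 0.0369).

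Car4, a carbonic anhydrase of capillaries, rose with the antibody by 0.50 ± 0.12 (SE; limma adjusted p = 0.0305), and on its second probe set by 0.69 (adjusted p = 0.0159 over all probe sets). The first call ended without control 32 or 35 or any 1 of the 5 antibody mice (adjusted p 0.0538 to 0.0698). Egln3, a prolyl hydroxylase that is itself induced when HIF is active, rose by 1.44 ± 0.20 (SE; limma adjusted p = 0.00117) with the antibody and 1.61 ± 0.20 (SE; limma adjusted p = 0.000392) with FGF21. Ero1l, an oxidase of the endoplasmic reticulum, rose with the antibody by 0.45 ± 0.08 (SE; limma adjusted p = 0.00748), while its other 2 probe sets differed by 0.24 and 0.30 and were not called. Angptl4, an inhibitor of lipoprotein lipase, fell with the antibody, with a difference of −0.72 ± 0.16 (SE; limma adjusted p = 0.0186), a call that ended without control 32 or 33 or aFGFR1/KLB 44 (adjusted p 0.0504 to 0.0528). Thbs1, an inhibitor of angiogenesis also made by platelets and macrophages, rose with FGF21 by 2.80 ± 0.23 (SE; limma adjusted p = 1.15e-05). It differed by 0.20 ± 0.23 (SE; limma adjusted p = 0.711) with the antibody, and the difference of the antibody from FGF21 was −2.61 ± 0.23 (SE; limma adjusted p = 0.000215).

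Of 12 tested mural genes, which mark pericytes and smooth muscle, 0 were called with FGF21, beside 6.32% of all genes. At an unadjusted p under 0.05 in limma there were 2, beside 20.4% of all genes. With the antibody 1 fell, 8.33% beside 5.18% of all genes called in either direction. The gene was Cspg4, the pericyte proteoglycan NG2, with −0.49 ± 0.11 (SE; limma adjusted p = 0.0211). Its call ended without controls 31, 32 or 33 or aFGFR1/KLB 41 or 43 (adjusted p 0.0519 to 0.0595). Pdgfrb, the receptor that holds pericytes to vessels, differed by −0.38 ± 0.22 (SE; limma adjusted p = 0.387). The 7 adipocyte genes tested gave 1 call, with the antibody, 14.3% beside 5.18% of all genes. It was a rise of Ucp1, the uncoupling protein of brown fat, by 0.19 ± 0.05 (SE; limma adjusted p = 0.0494). That call ended in 14 of the 15 fits without 1 sample (adjusted p up to 0.119). Macrophage, fibroblast, skeletal muscle, lymphatic and blood cell lists gave 0 calls with limma in all 3 comparisons. At an unadjusted p under 0.05, macrophage genes gave 1 with each agent against control, the lymphatic genes 1 with FGF21 and fibroblast genes 1 between the agents, and the other lists gave 0. The calls of Cspg4 and Ucp1 also ended with ribosomal centring (adjusted p 0.31 and 0.355). All 12 fibroblast genes were lower with the antibody, with a median of −0.48 against control and −0.56 against FGF21. Over all genes 45.1% were higher with the antibody than in controls, and 53.7% were higher with the antibody than with FGF21. For FGF21 against control that share was 45.5%. The fibroblast mean was 11.66 in control 34 against 9.52 to 10.2 in the other controls. It was 11.16 in FGF21 36 against 9.64 to 10.45 in the other FGF21 mice. Of 10 skeletal muscle genes 9 were lower with the antibody (median −1.56) and 10 with FGF21 (median −1.53). Of 14 macrophage genes 12 were higher with FGF21 (median 0.48), and 13 were lower with the antibody than with FGF21 (median −0.56). The macrophage mean was 10.62 in FGF21 36 and 10.29 in control 34, above all other samples. The part of these lists in the members' results was not tested beyond the fits that follow.

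The members were also set against cell content within groups. For each gene tested, limma fitted a slope on the mean of a content list with the 3 groups as terms. On the mean of the 25 other endothelial markers 4 of 37 members had a slope past the threshold, 10.8% beside 0.38% of all genes. These were Pecam1 (1.09 ± 0.21 log2 units per unit of the list mean, adjusted p = 0.0474), Mmrn2 (1.02), Ets1 (1.15) and Aplnr (3.86). Without the 2 samples farthest from the median, FGF21 39 and control 33, 0 members and 0 of all genes passed. At an unadjusted p under 0.05 in limma there were 14 members, against 16 with all samples. Leaving out the farthest samples narrows the range of the list mean. The loss of calls therefore cannot show whether they rested on those samples. The slopes without them were 0.95 for Pecam1, 0.81 for Mmrn2, 0.97 for Ets1 and 3.64 for Aplnr, each with adjusted p = 0.192 over 13 samples. With that mean as a covariate 4 members were called with the antibody. These were Sox17 at 0.53 (adjusted p = 0.00893), Notch4 at 0.40 (adjusted p = 0.041), Nos3 at −0.46 (adjusted p = 0.0461) and Aplnr at −1.42 (adjusted p = 0.00577). S1pr1 and Efnb2 were no longer called, at 0.57 (adjusted p = 0.0569) and 0.38 (adjusted p = 0.0747). With FGF21 Aplnr alone was called, at −1.21 (adjusted p = 0.0393), and the 4 calls made without the covariate ended. Those differences were 0.24 for Eng (adjusted p = 0.101), 0.24 for Sox17 (adjusted p = 0.337), 0.30 for Notch4 (adjusted p = 0.254) and −0.47 for Nos3 (adjusted p = 0.132). The covariate itself averaged 8.395 in controls, 8.622 with FGF21 and 8.516 with the antibody. Its genes include Thbd, Cyyr1, Pcdh12, Adgrl4 and Apold1, each called with at least 1 agent. It can therefore take up part of a difference between groups, so the ended calls do not show vessel content as their source. Some of the covariate's genes read high in control 34, as Cd93 did at 11.15 (other controls 9.40 to 9.76) and Cd34 at 10.47 (8.66 to 8.96). Others read lowest of the controls there, such as Arhgef15 at 7.44 and Ushbp1 at 8.57. Whether the mean follows vessel content alone was not tested.

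On the mean of 14 macrophage genes 9 members passed, 24.3% beside 40.0% of all genes. The slope was positive for Plvap (0.62), Aplnr (0.55) and Angpt2 (0.13). It was negative for Nos3 (−0.25 ± 0.04, adjusted p = 0.00037), Vegfb (−0.30), Vegfa (−0.31), Flt1 (−0.20), Dll4 (−0.17) and Sox7 (−0.19). Without FGF21 36 and control 34, the 2 samples farthest from the median, Nos3 alone passed, at −0.31 (adjusted p = 0.0405), beside 3.4% of all genes. This too narrows the range of the list mean, so the loss of calls alone does not show what they rested on. The slopes of the other members were then −0.28 for Sox7 and −0.25 for Flt1. They were nearer 0 than before for Vegfa (−0.26), Plvap (0.29), Aplnr (0.31), Angpt2 (0.09), Vegfb (−0.15) and Dll4 (−0.10). On the mean of 10 skeletal muscle genes 0 members passed in limma (1 at an unadjusted p under 0.05), beside 1.91% of all genes.

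**Figure D4:**
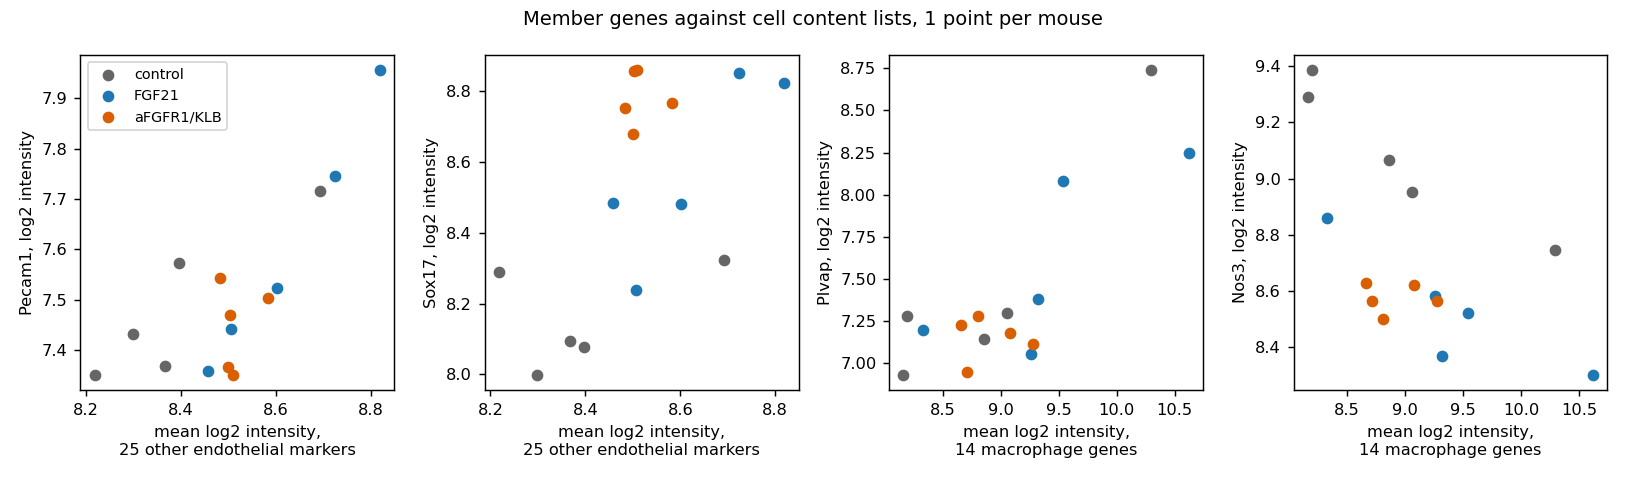
Log2 intensity of a gene (vertical axes) against the mean log2 intensity of a cell content list (horizontal axes), 1 point per mouse, coloured by group. Pecam1 and Sox17 are set against 25 other endothelial markers, and Plvap and Nos3 against 14 macrophage genes. The antibody points for Sox17 lie above all control points, at marker means of 8.48 to 8.58. No control has a marker mean in that range: controls 31, 32, 33 and 35 lie below it and control 34 above it. Control 34 and FGF21 36 lie at the far right of the macrophage axes.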

How the data were processed

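RNA of interscapular brown fat was hybridised to 15 arrays, 5 per group and 1 per mouse. The authors' deposited table holds a linear RMA intensity for every probe set in every sample (5.58 to 34652), RMA being named in the submitters' processing notes. Its version, the chip definition and later steps are not given in the sources used here. The deposited intensities were taken to log2 and not normalised again. The platform annotation gave a single symbol to 34958 of 45101 probe sets, several to 932 and none was listed for 9211. The probe set with the highest overall mean stood for its gene. Genes whose mean exceeded 5.06 (log2), the 40th percentile of all probe sets, were tested. limma 3.58.1 (R 4.3.3) fitted the 3 groups jointly, leaving 12 degrees of freedom, with two-sided p adjusted by Benjamini and Hochberg over 13174 genes and a threshold of 0.05. The fit was tested on simulated data.

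The labels give no batch, scan date or pairing. Arrays have no read depth, and their number limits the precision: the median residual SD was 0.19 for members and 0.16 for all genes. The members and lists were chosen with earlier results of these data known. Values in every sample are given for members called in at least 1 comparison and for Pecam1, Cdh5, Kdr, Flt1, Tek, Vegfa, Angpt2 and Cav1. In other lists up to 4 called genes with the smallest p per comparison are named; Notch1, Jag1 and Pdgfrb were named after their values were seen. The slopes on cell content lists were added after the results were seen. Alternatives were no filter, log2(value + 16), the mean over all probe sets, the 2 groups alone, trend and robust eBayes, 2 centrings, covariates, and samples left out. Promoter windows were RefSeq's, GRCm38.p6, without those on chr18.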

Additional observations from a re-analysis of the deposited data

Results flagged for a closer look

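For each of the 37 genes in each of the 3 groups, the highest or lowest of the 5 values was compared with the nearest other value by Dixon's ratio, and 14 of 111 groups (12.6%) passed the 95% critical value of 0.71, where chance gives about 5%. Values are log2 intensities, and the range of the other 4 mice of the group follows each.

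Control 34 was high for Emcn at 8.71 (others 7.93 to 8.16). It was also high for Plvap at 8.74 (others 6.93 to 7.30) and low for Vegfb at 9.87 (others 10.60 to 10.78). Among the other controls, control 35 was low for Robo4 at 7.36 (others 7.49 to 7.52) and control 33 was low for Cav1 at 13.63 (others 13.77 to 13.80). FGF21 36 was low for S1pr1 at 7.06 (others 7.85 to 8.13) and for Apln at 6.41 (others 6.84 to 7.0).

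In the antibody group, aFGFR1/KLB 43 was high for Icam2 at 9.17 (others 8.46 to 8.66). The same mouse was low for Vwf at 6.68 (others 7.50 to 7.71), for Flt4 at 6.46 (others 6.76 to 6.88) and for Ets1 at 9.47 (others 9.71 to 9.78). Mouse aFGFR1/KLB 41 was low for Mmrn2 at 9.49 (others 9.57 to 9.60) and for Rasip1 at 5.99 (others 6.33 to 6.40). Mouse aFGFR1/KLB 44 was high for Apln at 7.53 (others 6.87 to 6.97).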

How the results depend on the processing

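No paired analysis was possible because the groups compared share no replicate numbers. Over 25 settings the count of members called with the antibody (5) was 1 with ribosomal centring, 8 without control 34 and FGF21 36 together, and 1 to 7 without 1 sample. The shares of all genes called were, in that order, 1.1%, 12.4% and 2.55% to 8.65%. The count with FGF21 (4) was 0 with the 2 groups alone, 2 with median centring, 0 with ribosomal centring, 10 without control 34 and FGF21 36, 9 with the macrophage mean and 1 with the mean of other endothelial markers as a covariate, and 2 to 8 without 1 sample. For FGF21 the shares of all genes called were, in that order, 2.44%, 4.08%, 1.36%, 16.2%, 10.3%, 2.14% and 3.51% to 15.9%. With the mean of other endothelial markers as a covariate the FGF21 median was −0.017. Between the agents the count (0) was 1 with log2(value + 16), with the mean over all probe sets, with trend and robust eBayes, without control 34 and FGF21 36 and with the macrophage covariate, and 0 to 1 without 1 sample. Over those settings 0.0759% to 1.91% of all genes were called. Members with a slope on the endothelial mean went from 4 to 0, and on the macrophage mean from 9 to 1, without the 2 farthest samples, added after the data were seen. The other medians ranged over 0.02 to 0.22 (antibody) and −0.08 to 0.07 (between the agents). Of 3900 values of 52 genes, 3530 kept direction and side of the threshold, 175 lost a call, 66 gained one, and 129 changed sign without a call on either side. The causes were not tested. Signals near the filter, such as Dll4, limit precision.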
